A study of Mus musculus with 42 samples.

Results

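Rapamycin was compared with vehicle in the kidneys of control mice, 3 treated and 3 vehicle mice of the 42 samples in the series. The members were chosen by their labels alone, as the libraries of the KspCre drug cohort labelled control and either Rapamycin or vehicle, and no measured value entered the choice. Rapamycin mice had received 11 intraperitoneal injections of 1 mg/kg, given 3 times a week, and vehicle mice the delivery vehicle for the same time. The controls (Ctrl) carry the genotype label wild type and the title KSP-Cre control, and were on a C57BL/6 background. The study's description of the 11-injection experiment calls its control mice Cre-negative, while the title does not say whether these mice carried Cre. Kidneys were collected at postnatal day 50 and RNA came from unsorted pieces of tissue, which hold a mixture of cell types and need not hold every region alike. The same cohort held 2 mutant genotypes given the same treatments, 3 mice to a group: Tsc2 KO, with Tsc2 inactivated in tubular epithelium by Cre under the cadherin 16 (Ksp) promoter, and DKO, with Tsc2 and Tfeb inactivated in the same way. They are used here only to set the response of control kidney beside that of other mice.

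Rapamycin binds the small protein FKBP12, and the complex docks on mTORC1, the kinase complex that couples growth factors and amino acids to protein synthesis, lipid synthesis and lysosome function. It is an allosteric inhibitor that blocks some mTORC1 substrates, such as S6 kinase, more fully than others. In tissue with an intact TSC complex, which restrains mTORC1 through the GTPase Rheb, mTORC1 activity is low to moderate and follows feeding. The comparison shows what the drug did to transcripts in kidney that has no mutation of the pathway.

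The 6 control libraries held 17326309 to 21113111 counted reads, within the range of the cohort (15104557 to 22807605). Vehicle 2 stood apart on the first principal component of the 6 libraries (34.0% of the variance) and vehicle 3 on the second (24.1%). Markers of adipocytes were uneven: the summed level of the 15 markers was 1271, 1160 and 50.9 FPKM (fragments per kilobase of gene length, scaled for library size) in the vehicle mice and 119, 96.8 and 572 FPKM in the Rapamycin mice, and Cfd, Retn, Lep, Plin1 and Ucp1 were listed at 0 in vehicle 3. The 9 urothelial markers summed to 57.9, 80.1 and 2.55 FPKM in the vehicle mice and to 48.1 to 75.2 FPKM in the Rapamycin mice. The part of these tissues in the results was not tested. Markers of the nephron were at high levels in every library, with the proximal tubule list summing to 8275 to 9661 FPKM. Xist lay between 19.8 and 33.0 FPKM in all 6 libraries, and Tsc2 overlapped between the groups, at 8.59, 9.65 and 9.81 FPKM with vehicle and 8.18, 8.56 and 8.93 FPKM with Rapamycin (log2 fold change -0.13, edgeR adjusted p = 0.626).

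Few genes passed the test in control kidney. Of 17027 genes tested by edgeR's quasi-likelihood test, 5 were decreased by Rapamycin (0.0294% of the genes tested) and 0 were increased (0%). A call required an adjusted p no higher than 0.05 and a group mean of 5 FPKM or more. Calls by edgeR are those of this main fit, of all 18 libraries with a filter on low counts, unless another fit is named. The 5 were Gadd45g, Dusp6, Tob2, Slc25a25 and Nfkbia. Without adjustment, 959 genes were higher (5.63%) and 967 lower (5.68%) at p under 0.05, together 11.3% of the genes tested. DESeq2 called 17 genes increased (0.0998%) and 33 decreased (0.194%), all 5 of the edgeR genes among them. Fitted to the control libraries alone, DESeq2 called 66 increased and 76 decreased of 15554 genes tested. In 3161 genes (18.6%) the Rapamycin libraries did not overlap the vehicle libraries, 1578 above (9.27%) and 1583 below (9.30%). The count at an unadjusted p under 0.05 was 1006 of 17526 genes tested without vehicle 2 and 2966 of 17536 without vehicle 1. The share of 11.3%, used below for comparison, thus depended strongly on single libraries. In unsorted tissue, fewer cells of a type and less RNA per cell cannot be told apart.

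**Figure D1:**
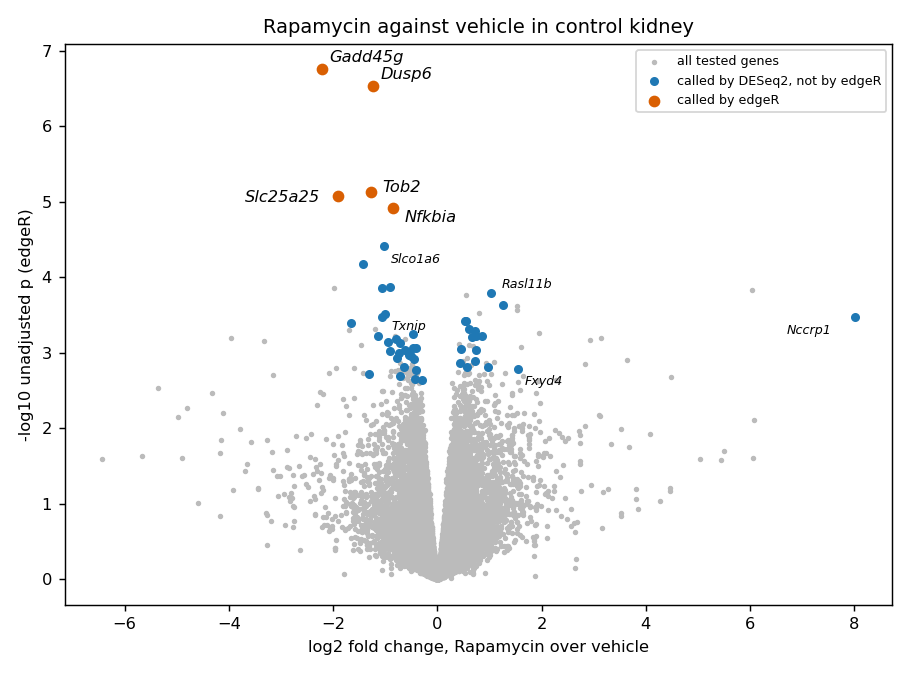
Each point is 1 gene of the 17027 tested in control kidney, with its log2 fold change of Rapamycin over vehicle on the x axis and the unadjusted edgeR p on a -log10 scale on the y axis. The 5 genes called by edgeR (orange) lie on the decreased side, and the genes called by DESeq2 alone (blue) lie on both sides.

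Gadd45g, a stress-inducible member of the Gadd45 family that acts on the p38 and JNK kinase cascades and on DNA demethylation, had the largest fall of the 5. It was at 150, 143 and 148 FPKM in the vehicle mice and at 30.3, 30.9 and 33.6 FPKM in the Rapamycin mice. The groups were far apart and the mice within each were close, with means of 147 ± 3.24 and 31.6 ± 1.78 FPKM (SD, n = 3). The log2 fold change was -2.21 (standard error 0.254, edgeR adjusted p = 0.00252), which is 4.64-fold lower. Vehicle 3, low in adipocyte and urothelial markers, was at 148 FPKM. The part of these tissues in the level of Gadd45g was not tested.

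Dusp6, a cytoplasmic phosphatase that removes the activating phosphates of ERK and is itself induced by ERK signalling, was at 27.3, 34.6 and 32.2 FPKM with vehicle and 15.3, 13.3 and 11.5 FPKM with Rapamycin. The lowest vehicle mouse was well above the highest Rapamycin mouse. The log2 fold change was -1.23 (standard error 0.146, edgeR adjusted p = 0.00252).

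Slc25a25, a calcium-regulated carrier of ATP-magnesium and phosphate in the inner mitochondrial membrane, was at 33.5, 26.5 and 21.5 FPKM with vehicle and 7.46, 6.07 and 8.31 FPKM with Rapamycin. Its log2 fold change was -1.90 (standard error 0.295, edgeR adjusted p = 0.0357), 3.73-fold lower. Tob2, an antiproliferative protein of the BTG/Tob family that recruits the CCR4-NOT deadenylase, was at 25.7, 27.1 and 21.3 FPKM with vehicle and 8.20, 12.3 and 10.3 FPKM with Rapamycin. Its log2 fold change was -1.27 (standard error 0.195, edgeR adjusted p = 0.0357). Neither gene overlapped between the groups. The called genes were picked by a test of the same values, so their separate groups are a description only.

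Nfkbia encodes IκBα, the inhibitor that holds NF-κB in the cytoplasm and is resynthesised when NF-κB is active. It was at 29.1, 38.7 and 30.5 FPKM with vehicle and 16.8, 18.8 and 19.1 FPKM with Rapamycin. The fall was the smallest of the 5, with a log2 fold change of -0.84 (standard error 0.135, edgeR adjusted p = 0.0407). Gadd45g and Dusp6 kept their calls with any of the 6 libraries left out. When edgeR was fitted to the 6 control libraries alone, it called Gadd45g, Slc25a25 and Txnip decreased, and Dusp6 (adjusted p = 0.0623), Tob2 and Nfkbia were not called. Of the fits with 1 library left out, Slc25a25 and Tob2 kept their calls only in that without vehicle 3, and Nfkbia lost its call with each library left out (edgeR adjusted p of 0.0764 to 0.366).

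**Figure D2:**
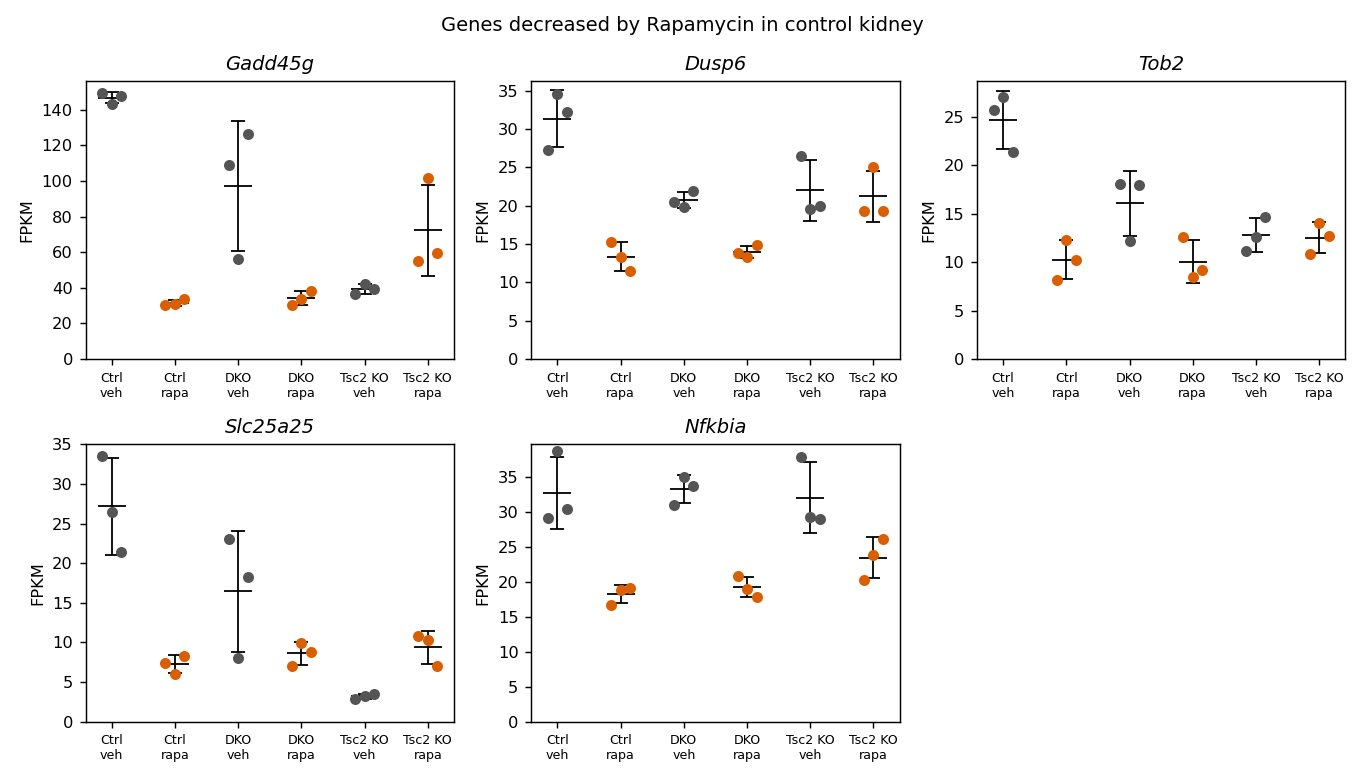
FPKM of the 5 decreased genes by library in the 6 groups of the cohort (veh, vehicle; rapa, Rapamycin), where points are mice, horizontal bars are means and error bars are SD (n = 3). In control kidney the vehicle and Rapamycin mice are separate for each gene, and the genes were picked by the test in these mice. In Tsc2 KO kidney Gadd45g and Slc25a25 are higher with Rapamycin.

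Gadd45g and Dusp6 are both members of a list of 37 immediate early and related inducible genes. Their upstream sequences are shown because they are the called genes of the only list that held any, and those of Slc25a25 and Nfkbia because these moved the same way, an addition made after their values were seen. Each is the 250 bases before the RefSeq start site (build GRCm38.p6), read 5′ to 3′ on the strand of the gene. Capitals mark matches on either strand to CACGTG (the E-box bound by bHLH factors, MiT/TFE among them), TGACGT (the core of a cAMP response element) and ATTGG (the CCAAT box). The positions are chr13:51846425-51846674 (+) for Gadd45g, chr10:99262981-99263230 (+) for Dusp6, chr2:32451471-32451720 (-) for Slc25a25 and chr12:55492648-55492897 (-) for Nfkbia.
Gadd45g: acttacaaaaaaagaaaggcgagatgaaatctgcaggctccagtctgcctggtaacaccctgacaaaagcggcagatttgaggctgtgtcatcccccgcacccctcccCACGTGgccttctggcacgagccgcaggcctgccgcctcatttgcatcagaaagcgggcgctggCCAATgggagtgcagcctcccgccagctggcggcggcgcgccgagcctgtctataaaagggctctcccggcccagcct
Dusp6: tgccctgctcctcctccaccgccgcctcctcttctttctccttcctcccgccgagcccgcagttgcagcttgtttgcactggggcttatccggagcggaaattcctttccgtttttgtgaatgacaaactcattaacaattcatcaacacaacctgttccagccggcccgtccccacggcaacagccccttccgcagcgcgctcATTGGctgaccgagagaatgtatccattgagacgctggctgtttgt
Slc25a25: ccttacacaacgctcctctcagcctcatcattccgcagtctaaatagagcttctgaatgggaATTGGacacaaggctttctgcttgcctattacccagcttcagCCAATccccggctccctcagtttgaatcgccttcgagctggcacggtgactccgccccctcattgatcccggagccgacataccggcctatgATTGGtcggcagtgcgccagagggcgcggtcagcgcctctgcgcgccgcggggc
Nfkbia: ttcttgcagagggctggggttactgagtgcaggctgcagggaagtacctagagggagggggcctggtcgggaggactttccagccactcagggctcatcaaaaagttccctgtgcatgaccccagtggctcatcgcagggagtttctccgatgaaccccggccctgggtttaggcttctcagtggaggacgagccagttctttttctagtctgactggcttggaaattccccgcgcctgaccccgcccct
An E-box was present once, 142 bases before the start of Gadd45g, while 6.02% of the 32851 promoters in the table hold these letters in the same window. CCAAT boxes were at 78 bases before the start of Gadd45g, at 46 in Dusp6 and at 3 places in Slc25a25, and 33.8% of all promoters hold at least 1. TGACGT was in none of the 4 windows and is in 6.47% of all promoters. These are matches of letters, and no binding was measured.

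Immediate early genes are transcribed within minutes of a stimulus without new protein synthesis. All 37 were tested and 21 reached the FPKM minimum. 2 were decreased and 0 were increased, against 0.0294% and 0% of all genes tested. The median log2 fold change was -0.13, against 0.00 over all genes tested. At an unadjusted p under 0.05, 10 were lower and 2 higher (32.4% of the list, against 11.3% of all genes). DESeq2 called 4 decreased genes on the list, against 0.194% of all genes tested.

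The members did not move as a block. Nr4a1, a nuclear receptor, Klf10 and Klf2 were on the low side. Nr4a1 was at 8.72, 12.5 and 4.67 FPKM with vehicle and 2.80, 0.932 and 1.93 FPKM with Rapamycin, without overlap (log2 fold change -2.20, edgeR adjusted p = 0.348). Klf10, a TGF-β-inducible zinc finger repressor, was at 7.54, 9.05 and 12.5 FPKM and 3.39, 2.58 and 4.82 FPKM (log2 fold change -1.43, edgeR adjusted p = 0.162, DESeq2 adjusted p = 0.000263). Klf2, a factor induced by flow in endothelium, was at 22.0, 18.5 and 20.2 FPKM and 10.9, 12.2 and 13.8 FPKM (-0.71, edgeR adjusted p = 0.301). All of these groups were separate, yet none of the 3 genes passed the main edgeR test. Of these, edgeR called Klf10 alone decreased when the filter on low counts was left out.

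The AP-1 subunits Fos and Junb and the zinc finger factor Egr1 were not on the low side. Fos was at 0.558, 1.71 and 0.891 FPKM with vehicle and 5.61, 0.602 and 0.674 FPKM with Rapamycin. Egr1 was at 2.00, 2.88 and 2.89 FPKM and at 14.6, 1.85 and 2.40 FPKM. In both genes, Rapamycin 1 was high and the other treated mice were within or below the range of the vehicle mice. Junb was at 6.77, 2.96 and 6.03 FPKM with vehicle and 33.0, 10.1 and 11.5 FPKM with Rapamycin (log2 fold change 1.79, edgeR adjusted p = 0.379), again with Rapamycin 1 highest. The same mouse had Gadd45g at 30.3 FPKM, the lowest of the 6.

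**Figure D3:**
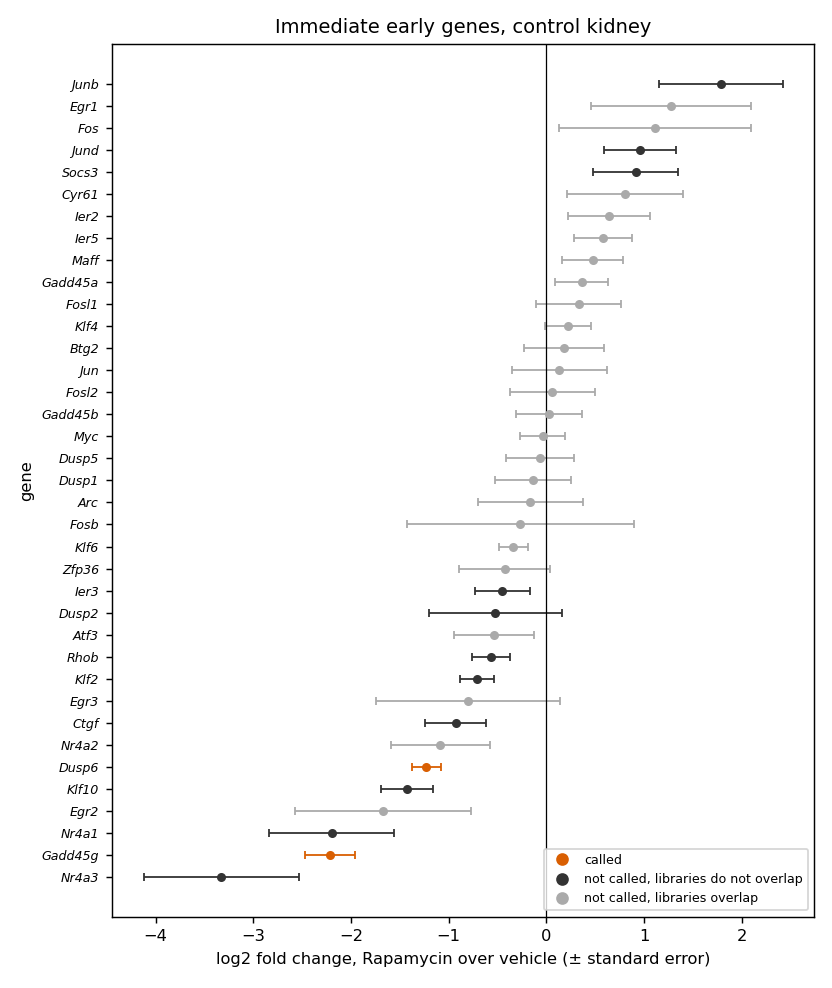
Log2 fold change of Rapamycin over vehicle in control kidney (x axis) for the 37 immediate early genes (y axis), with bars for the standard error. Gadd45g and Dusp6 are called, and Nr4a3, Nr4a1, Klf10, Ctgf, Klf2, Rhob, Ier3 and Dusp2 are lower and Junb, Jund and Socs3 higher without overlap of the libraries but without a call by edgeR.

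Further genes with the smallest p on the decreased side did not pass the main edgeR test. Without the filter on low counts, edgeR called Slco1a6, Txnip and Chrna4 decreased, but not Angpt1. Slco1a6, an organic anion transporter of the proximal tubule, was at 90.3, 78.2 and 77.4 FPKM with vehicle and 36.1, 48.9 and 35.5 FPKM with Rapamycin (log2 fold change -1.03, edgeR adjusted p = 0.110). Txnip, which binds thioredoxin and limits glucose uptake, was at 237, 249 and 256 FPKM and at 117, 130 and 121 FPKM (-1.01, edgeR adjusted p = 0.288, though called in the edgeR fit of the control libraries alone). Picked for a small p, both genes had groups apart by more than the spread within them, and DESeq2 called both (adjusted p = 0.000105 and 0.00503). Angpt1, a ligand of the endothelial receptor Tie2, and Chrna4, a nicotinic receptor subunit, had log2 fold changes of -0.91 and -1.06, each with an edgeR adjusted p of 0.223.

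No gene was called increased in the main edgeR fit. Without the filter on low counts, edgeR called Nccrp1 and Rasl11b increased, and in the control libraries alone it called Fxyd4. Among the genes with the smallest p on that side, all but Nccrp1 had log2 fold changes of 0.53 to 1.27, and DESeq2 called the genes named here. Rasl11b, a small GTPase of the Ras family, was at 8.79, 9.61 and 8.04 FPKM with vehicle and 21.7, 16.4 and 16.1 FPKM with Rapamycin (log2 fold change 1.03, edgeR adjusted p = 0.223, DESeq2 adjusted p = 0.00371). Lgals3, a galectin that rises in injured tubules, was at 18.2, 14.5 and 17.8 FPKM and at 29.8, 25.7 and 28.8 FPKM (0.74, edgeR adjusted p = 0.292). Esrp2, an epithelial splicing regulator, and the kinesin components Klc2 and Kifc3 were at log2 fold changes of 0.53, 0.55 and 0.72, and Tubb2a, Efna1, Mdp1 and Gm13420 at 0.87, 0.66, 0.61 and 1.27, with edgeR adjusted p between 0.276 and 0.292. Each of these genes was higher in all 3 Rapamycin mice than in any vehicle mouse, as were 9.27% of all genes tested. They were picked for a small p in the same mice, so this is a description only.

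Nccrp1, an F-box family protein of stratified epithelia, had the largest log2 fold change among the named genes, at 8.01 (edgeR adjusted p = 0.288). In control kidney it rested on 2 mice: 39.4 and 40.6 FPKM in Rapamycin 1 and 3, 0.861 FPKM in Rapamycin 2 and 0 to 0.161 FPKM with vehicle. In DKO mice Nccrp1 was at 4.77, 5.80 and 0.573 FPKM with vehicle and 27.2, 46.4 and 56.4 FPKM with Rapamycin (log2 fold change 3.56, edgeR adjusted p = 0.0917). In Tsc2 KO mice it was at 0.165, 1.29 and 3.68 FPKM and at 11.6, 4.23 and 0.123 FPKM (1.64, edgeR adjusted p = 0.332).

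None of the 47 tested members of the list of mTORC1 components and regulators was called by edgeR or DESeq2. Their median was -0.13, and 2 were higher and 4 lower at an unadjusted p under 0.05 (12.8% of the list, near the 11.3% of all genes). Fnip1, a partner of folliculin at the lysosome, was at 9.41, 14.3 and 11.3 FPKM with vehicle and 6.50, 8.30 and 7.48 FPKM with Rapamycin (log2 fold change -0.65, edgeR adjusted p = 0.318). Mtor, Rptor and Fkbp1a, which encode the kinase, its scaffold Raptor and FKBP12, had log2 fold changes of -0.26, -0.02 and 0.10 (edgeR adjusted p = 0.524, 0.937 and 0.753).

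The MiT/TFE factors drive lysosomal and autophagy genes and are phosphorylated by mTORC1. Tfeb was at 4.64, 3.89 and 4.70 FPKM with vehicle and 6.66, 7.0 and 4.47 FPKM with Rapamycin, with overlap in Rapamycin 3 (log2 fold change 0.46, edgeR adjusted p = 0.396). Tfe3 and Mitf were at log2 fold changes of 0.06 and 0.02. Gpnmb, a MiT/TFE target, stayed under 0.5 FPKM in all 6 libraries.

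No lysosomal, V-ATPase or autophagy gene was called by edgeR. DESeq2 called 1 decreased, Gusb, against 0.194% of all genes tested. The medians were -0.19 for 19 lysosomal proteases, -0.11 for 41 glycosidases, sulfatases and lipases, -0.08 for 31 membrane proteins and transporters, -0.13 for 23 V-ATPase subunits and -0.05 for 43 autophagy genes. At an unadjusted p under 0.05, each list had 1 to 7 lower members, and 1 autophagy gene was higher. The shares were 15.8% of the proteases, 17.1% of the glycosidases, sulfatases and lipases, 9.68% of the membrane proteins, 4.35% of the V-ATPase subunits and 9.3% of the autophagy genes, against 11.3% of all genes. The glycosidase, sulfatase and lipase list summed to 1108 to 1137 FPKM with vehicle and 961 to 983 FPKM with Rapamycin, and the membrane protein list to 1437 to 1503 FPKM and 1267 to 1394 FPKM, both without overlap. The sums of the proteases, V-ATPase subunits and autophagy genes overlapped between the groups. Gusb, the lysosomal β-glucuronidase, was at 7.82, 7.71 and 6.42 FPKM and at 4.75, 5.34 and 5.72 FPKM (log2 fold change -0.47, edgeR adjusted p = 0.292, DESeq2 adjusted p = 0.0216). Tpp1, a tripeptidyl peptidase, and Igf2r, the mannose 6-phosphate receptor, had log2 fold changes of -0.47 and -0.49 (edgeR adjusted p = 0.357 and 0.348).

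SREBP factors switch on cholesterol and fatty acid synthesis downstream of mTORC1. None of 43 targets was called, the median was -0.21, and 10 were lower and 1 higher at an unadjusted p under 0.05 (25.6% of the list, against 11.3% of all genes). Tmem97, a regulator of cholesterol transport, was at 30.3, 25.4 and 28.2 FPKM with vehicle and 20.1, 21.1 and 15.3 FPKM with Rapamycin (log2 fold change -0.57, edgeR adjusted p = 0.324). Idi1 and Hmgcs1 of the cholesterol pathway were at -0.86 and -0.49 (edgeR adjusted p = 0.348 and 0.400). Scd1, also abundant in fat, was at 748, 580 and 237 FPKM with vehicle and 141, 183 and 269 FPKM with Rapamycin. Among vehicle mice it was lowest in vehicle 3, the library with little adipocyte signal. The part of fat in the level of Scd1 was not tested.

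ATF4, another factor translated under mTORC1 control, activates amino acid and one-carbon genes. None of 42 tested targets was called and the median was -0.08. Gdf15, a stress cytokine, was at 2.47, 1.26 and 1.26 FPKM with vehicle and 6.97, 2.87 and 4.61 FPKM with Rapamycin (log2 fold change 1.52, edgeR adjusted p = 0.377). Mthfd2, a mitochondrial folate enzyme, was at 1.2 to 1.36 FPKM and 1.28 to 1.83 FPKM (0.35, edgeR adjusted p = 0.490).

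Transcripts of cytoplasmic ribosomal proteins, whose translation depends on mTORC1, were mostly above 0 without a call. Of 80 tested, 76 had a log2 fold change above 0 (over all genes tested, 49.7% were below 0), the median was 0.25, and 17 were higher and 0 lower at an unadjusted p under 0.05 (21.2% of the list, against 11.3% of all genes). Their summed level was 12383 to 14736 FPKM with vehicle and 14815 to 16696 FPKM with Rapamycin. The ranges did not overlap but nearly met, and vehicle 2, the library that stood apart, had the lowest sum. Rpl37 was at 62.3, 33.5 and 52.8 FPKM and at 82.5, 85.0 and 64.6 FPKM (log2 fold change 0.65, edgeR adjusted p = 0.379). In the mutants the ribosomal protein median was near 0, at 0.07 in Tsc2 KO and -0.01 in DKO kidney. Ribosome biogenesis factors had a median of -0.02 in control kidney.

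Of the nephron segments, principal cells of the collecting duct stood highest, with 17 of 17 tested markers above 0 (49.7% of all genes were below 0) and a median of 0.41. None was called by edgeR and 4 were higher at an unadjusted p under 0.05 (23.5% of the list, against 11.3% of all genes). Aqp2, the vasopressin-regulated water channel, was at 196, 165 and 149 FPKM with vehicle and 402, 372 and 612 FPKM with Rapamycin (log2 fold change 1.44, standard error 0.419, edgeR adjusted p = 0.348). Fxyd4, a regulatory subunit of the sodium pump, was at 12.7, 9.90 and 10.6 FPKM and at 29.9, 35.7 and 31.2 FPKM (1.54, standard error 0.408, edgeR adjusted p = 0.318, DESeq2 adjusted p = 0.0358). Both were clearly separate between the groups, whereas Scnn1a overlapped and Kcnj1 and Nr3c2 were at 0.11 and 0.00. When only the 6 control libraries were fitted, edgeR called Fxyd4. The proximal tubule list had a median of -0.15, the thick limb and distal convoluted tubule list 0.16 and the intercalated cell list 0.10, all without a call by edgeR. DESeq2 called 1 gene of the proximal tubule list decreased, Slco1a6, against 0.194% of all genes tested. Without the filter on low counts, edgeR called Slco1a6 as well.

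Glucocorticoid-responsive genes had a median of -0.44 over 13 tested members, and 5 were lower at an unadjusted p under 0.05 (38.5% of the list, against 11.3% of all genes). Errfi1, a feedback inhibitor of the EGF receptor, was at 163, 257 and 201 FPKM with vehicle and 93.9, 95.1 and 92.9 FPKM with Rapamycin (log2 fold change -1.14, edgeR adjusted p = 0.292, DESeq2 adjusted p = 0.00902). Without the filter on low counts, edgeR called Errfi1 decreased. Sgk1, a kinase of sodium transport downstream of mTORC2 and corticosteroids, was at 64.4, 112 and 43.1 FPKM and at 13.6, 33.3 and 24.9 FPKM (-1.61, edgeR adjusted p = 0.357). Fkbp5 and Per1, also on the list, overlapped between the groups, at -0.01 and -0.32. On the separate list for vitamin D and phosphate, Cyp24a1, the vitamin D 24-hydroxylase, was at 33.0, 49.6 and 46.0 FPKM and at 18.7, 18.3 and 14.9 FPKM (-1.31, edgeR adjusted p = 0.318, DESeq2 adjusted p = 0.0366).

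The remaining lists held no gene called by edgeR, while DESeq2 called 1 or 2 members of the lists for tubular injury, polycystic kidney disease and cilia, vitamin D and phosphate, drug metabolism and sex-biased genes. Over all genes tested, DESeq2 called 0.0998% increased and 0.194% decreased. At an unadjusted p under 0.05 the shares were highest for iron genes (3 higher and 5 lower of 25, 32%), mitochondrial genome genes (1 higher and 3 lower of 13, 30.8%) and selenoproteins (0 higher and 4 lower of 16, 25%), against 11.3% of all genes. Their medians ran from -1.37 for adipocytes and -0.79 for red blood cells to 0.30 for tubular injury and 0.25 for the cell cycle, where Birc5 was at 0.109 to 0.278 FPKM with vehicle and 0.316 to 1.12 FPKM with Rapamycin. Of the 48 lists, 47 held no gene called by edgeR.

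**Figure D4:**
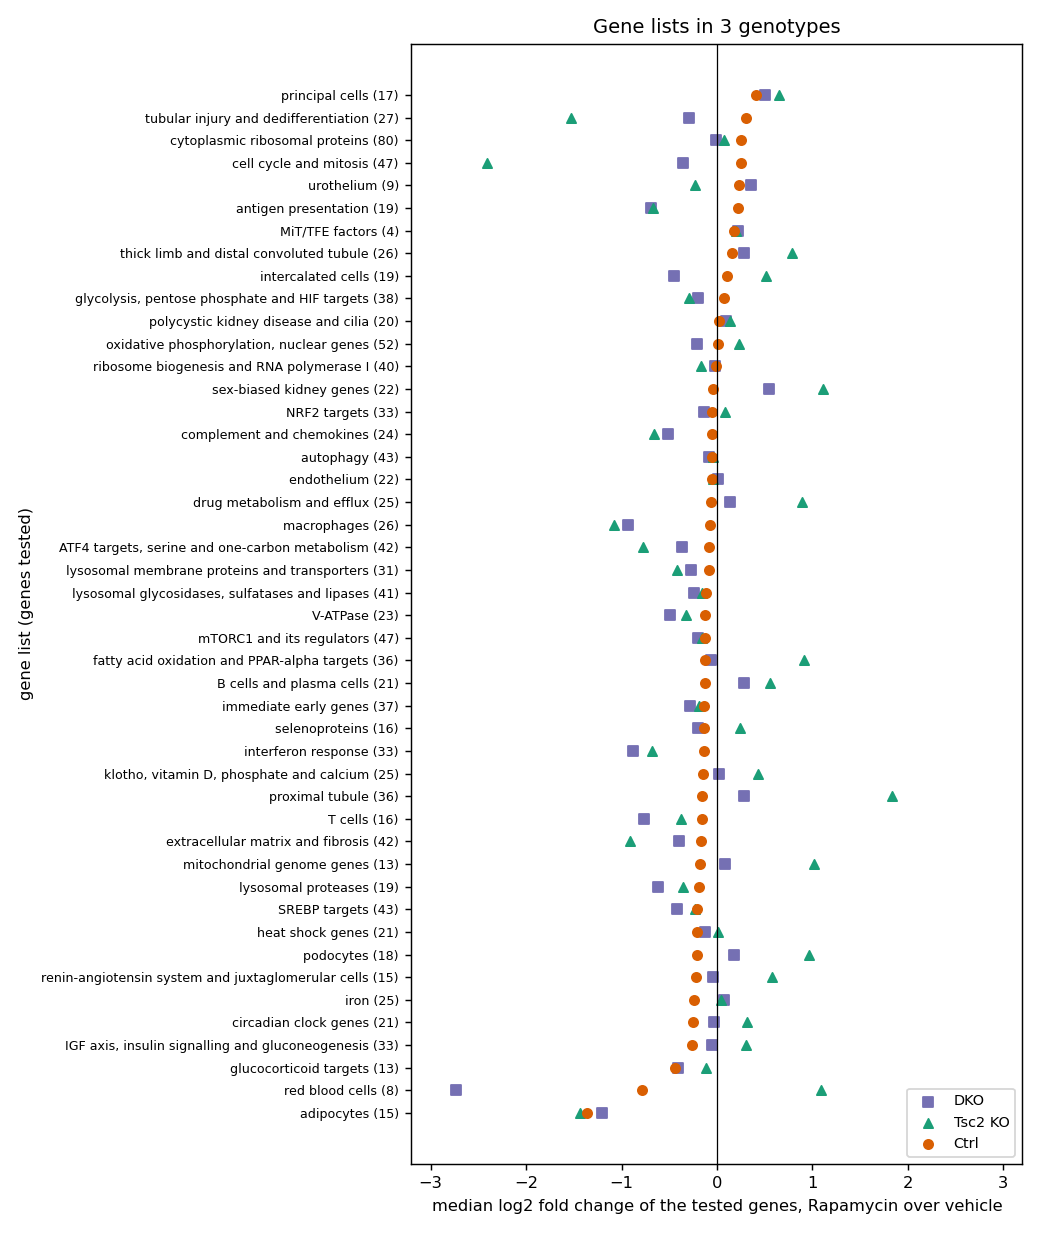
Median log2 fold change of Rapamycin over vehicle (x axis) for each gene list with at least 4 tested genes (y axis, genes tested in brackets) in Ctrl, Tsc2 KO and DKO kidney. The adrenal list is not drawn, since its medians in Tsc2 KO (-11.2) and DKO (-10.8) lie outside the axis. Its Ctrl median was 0. The Ctrl medians run from -1.37 (adipocytes), -0.79 (red blood cells) and -0.44 (glucocorticoid targets) to 0.30 (tubular injury) and 0.41 (principal cells).

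The mutant groups of the cohort are other mice, with vehicle controls of their own, so each gives a separate measurement of the drug. Rapamycin increased 1694 and decreased 1384 genes in Tsc2 KO kidney (9.95% and 8.13%) and increased 211 and decreased 363 in DKO kidney (1.24% and 2.13%). The difference between the effect in Tsc2 KO and in control kidney passed the edgeR test for 2456 genes (14.4%), 1421 higher in Tsc2 KO (8.35%) and 1035 lower (6.08%). Between DKO and control kidney it passed for 50 genes (0.294%), and for 9 to 63 with 1 library left out, the lowest without control Rapamycin 3. At an unadjusted p under 0.05 the shares were 34.3% and 13.2%. Adrenal markers were uneven among the mutant vehicle mice. Mc2r of that list was at 37.4, 0.761 and 0.0650 FPKM in Tsc2 KO and 4.20, 40.4 and 0.502 FPKM in DKO vehicle mice. Of 11 tested adrenal genes, 7 were called decreased in Tsc2 KO and 4 in DKO kidney. The part of adrenal tissue in the mutant results was not tested.

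The 5 genes called in control kidney had negative log2 fold changes in DKO kidney too. Gadd45g was at 109, 56.5 and 127 FPKM with vehicle and 30.5, 34.0 and 38.3 FPKM with Rapamycin in DKO mice (log2 fold change -1.51, edgeR adjusted p = 0.00258). Nfkbia and Dusp6 were also decreased there, with log2 fold changes of -0.79 and -0.57 (edgeR adjusted p = 0.00359 and 0.0330). Tob2 and Slc25a25 were at -0.67 and -0.93 and just missed the threshold (edgeR adjusted p = 0.0515 and 0.0705). For none of the 5 did the difference from control kidney pass the test (edgeR adjusted p from 0.198 to 0.923).

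In Tsc2 KO kidney the same genes behaved otherwise. Gadd45g was at 36.7, 41.9 and 39.2 FPKM in the vehicle mice, near the level of Rapamycin-treated controls, and at 55.2, 102 and 59.6 FPKM with Rapamycin. It was increased by 0.88 on the log2 scale (edgeR adjusted p = 0.0130), and the effect differed from that in control kidney by 3.10 (standard error 0.352, edgeR adjusted p = 3.36e-05). Slc25a25 rose from 2.86 to 3.53 FPKM with vehicle to 7.02 to 10.8 FPKM with Rapamycin, and differed by 3.46 (edgeR adjusted p = 5.50e-05). Dusp6 and Tob2 were at log2 fold changes of -0.05 and -0.03 and differed from control by 1.18 and 1.24 (edgeR adjusted p = 0.000928 and 0.00477). Nfkbia was decreased by Rapamycin here as well, by 0.45 on the log2 scale (edgeR adjusted p = 0.0197), and its difference from control did not pass the test (edgeR adjusted p = 0.153).

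Rasl11b rose in both mutants, by 0.89 in Tsc2 KO and 1.17 in DKO on the log2 scale (edgeR adjusted p = 0.00519 and 0.00469), and Esrp2 by 0.37 and 0.74 (edgeR adjusted p = 0.0282 and 0.00214). Fxyd4 rose by 2.05 and 1.66 (edgeR adjusted p = 0.00207 and 0.0279). For these 3 genes neither difference from control passed the test. Slco1a6, in contrast, was at 30.3, 26.4 and 33.4 FPKM with vehicle and 71.3, 66.8 and 60.1 FPKM with Rapamycin in DKO kidney, and rose in Tsc2 KO kidney from 5.08 to 6.83 FPKM to 26.3 to 44.4 FPKM. Both differences passed (3.54 for Tsc2 KO and 2.17 for DKO, edgeR adjusted p = 1.08e-06 and 0.00107). Lgals3 was decreased by Rapamycin in Tsc2 KO and in DKO kidney, by 2.97 and 0.74 on the log2 scale. Its log2 fold change was 0.74 in control kidney, and both differences passed. Its vehicle levels were unlike, at 14.5 to 18.2 FPKM in Ctrl, 134 to 147 FPKM in Tsc2 KO and 27.7 to 42.9 FPKM in DKO mice. With Rapamycin it was at 12.8 to 21.7 FPKM in Tsc2 KO mice. The part of the starting level in such differences was not tested.

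**Figure D5:**
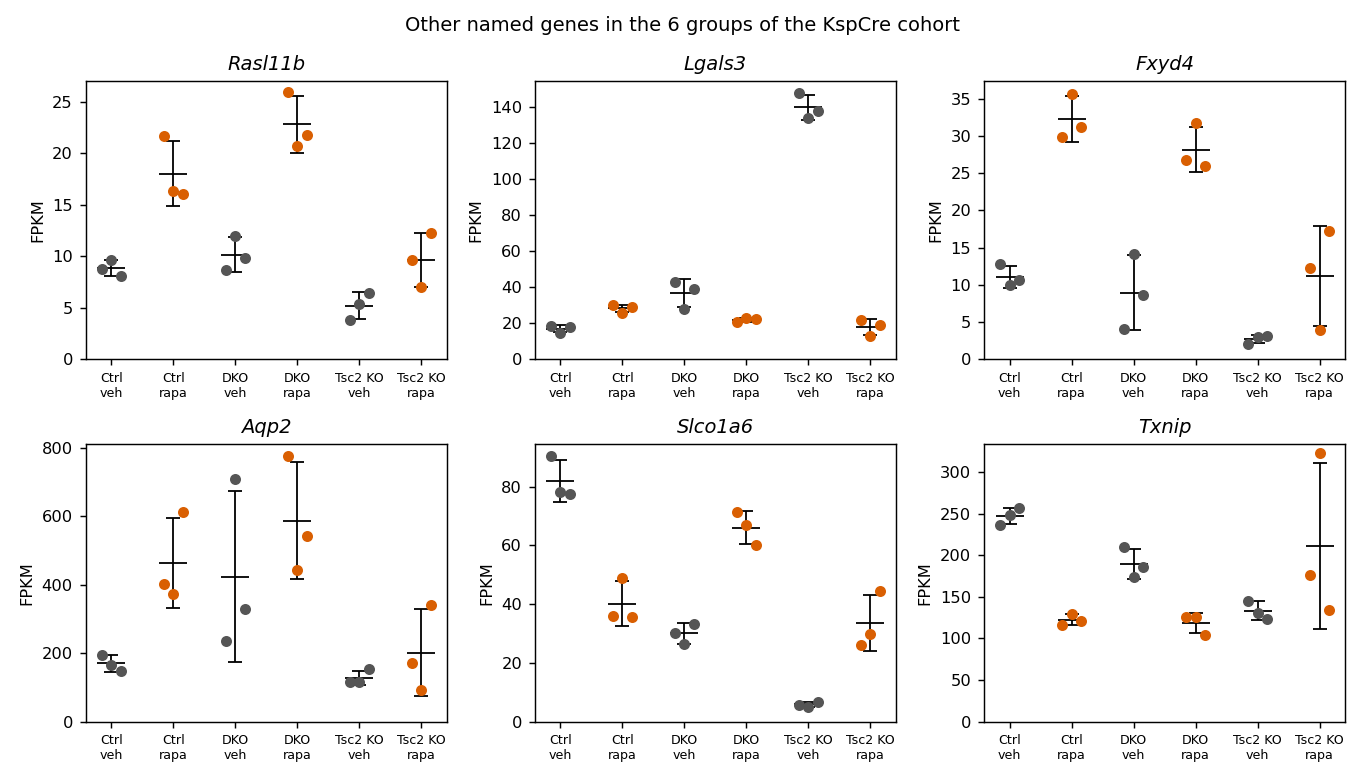
FPKM of 6 other named genes by library in the 6 groups of the cohort (veh, vehicle; rapa, Rapamycin), with points for mice, horizontal bars for means and error bars for SD (n = 3). Rasl11b is higher with Rapamycin in each genotype, while Slco1a6 is lower with Rapamycin in Ctrl and higher in the mutants.

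The genes with the smallest p for a difference between genotypes were not called by edgeR in control kidney, though DESeq2 called Akr1c14 and Lgals3 there. Akr1c14, an aldo-keto reductase, was at 37.6, 36.8 and 24.4 FPKM with vehicle and 18.2, 24.2 and 17.5 FPKM with Rapamycin in control kidney (log2 fold change -0.72, edgeR adjusted p = 0.318), and was increased by 5.40 in Tsc2 KO and by 2.05 in DKO kidney. In Tsc2 KO mice Akr1c14 was at 0.0937 to 0.251 FPKM with vehicle and 5.55 to 7.96 FPKM with Rapamycin. Cyp2d12, a cytochrome P450, had a log2 fold change of 0.19 in control and 6.58 in Tsc2 KO kidney. It was at 11.2 to 20.0 FPKM in control vehicle mice and 0.182 to 0.393 FPKM in Tsc2 KO vehicle mice. Aebp1, a matrix-associated protein, had log2 fold changes of -0.17 in control, -2.13 in Tsc2 KO and -1.82 in DKO kidney.

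Beyond the called genes, 581 genes with enough FPKM were lower and 513 higher at an unadjusted p under 0.05 in control kidney. Of the lower genes, 66.8% had a negative log2 fold change in DKO kidney, against 51% of all genes with enough FPKM, and 10.7% were called decreased there, against 3.62%. Of the higher genes, 68.2% were positive in DKO kidney, against 49%, and 8.19% were called increased, against 2.72%. In Tsc2 KO kidney the shares with the same sign were 33.6% for the lower genes and 37.6% for the higher genes, against 44% and 56% of all genes. There, 10.3% of the lower genes were called decreased, against 12.4%, and 9.94% of the higher genes increased, against 22.3%. Genes are not independent replicates, and these shares are given as a description.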

How the data were processed

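The authors deposited a table of read counts per gene and a table of FPKM for the 18 libraries of the KspCre drug cohort, and both were used. RNA was extracted from pieces of kidney, captured by poly-A and made into non-directional libraries, so reads of overlapping or antisense genes cannot be told apart. The submitters' processing notes name STAR 2.6.1d, HISAT2 2.0.5, featureCounts 1.5.0-p3 and DESeq2 1.20.0 and the build mm10. The deposited counts are not normalized. The deposited FPKM are the counts divided by gene length and by a constant for each library, set by the authors. Tables of the other cohorts were not used here.

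The counts of all 18 libraries (6 groups) were fitted with edgeR 4.0.16 in R 4.3.3 (filterByExpr by group, TMM, glmQLFit, glmQLFTest), with Benjamini-Hochberg adjustment over 17027 of 54532 genes. Calls required an adjusted p no higher than 0.05 and a mean of 5 FPKM or more in a compared group. Standard errors are the log2 fold change over the square root of F. Levels and their SD are FPKM. Effects were compared between genotypes by the interaction term. The fit was tested on simulated data. DESeq2 1.42.0 and other settings were alternatives. The replicates are separate mice, 3 to a group. Library pairs of a group differed beyond sampling noise, so none was counted as a duplicate. Replicate numbers did not pair the libraries, with correlations of deviations between same-numbered libraries of -0.0592, -0.123 and -0.300.

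The genes named are, by rule, the called protein-coding genes whose groups do not overlap, filled to 10 in each direction by the smallest p among genes with enough FPKM; from each of 48 lists up to 4 called genes and at least the gene with the smallest p; the pathway genes Tsc2, Tfeb, Tfe3, Mitf, Mtor, Rptor, Fkbp1a, Gpnmb, Mthfd2 and Xist, and the 3 genes with the smallest p of each difference between genotypes. Other genes named were chosen after their values were seen. Earlier results of these data were known when the members, lists and tests were chosen, though the libraries compared were picked by their labels. Upstream sequence is from RefSeq (GRCm38.p6) and had entries for all 5 called genes; that of Tob2 lies inside the gene as the count table places it and is not printed.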

Additional observations from a re-analysis of the deposited data

Results flagged for a closer look

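The effect of Rapamycin differed between Tsc2 KO and control kidney for 2456 genes and between DKO and control kidney for 50 genes, by edgeR's test of the difference itself. The named genes among them are given here as the log2 fold change in the mutant minus that in control kidney, so that a positive value means a higher effect in the mutant. For Tsc2 KO, the difference was negative in Gpnmb (-7.50), Lgals3 (-3.71), Gdf15 (-3.24), Mthfd2 (-2.75), Aebp1 (-1.96), Tubb2a (-1.84), Mdp1 (-0.69), Gusb (-0.62) and Klc2 (-0.57). It was positive by more than 2 in Cyp2d12 (6.39), Akr1c14 (6.12), Slco1a6 (3.54), Slc25a25 (3.46), Gadd45g (3.10), Ren1 (2.74) and Cyp24a1 (2.52). Smaller positive differences were found in Sgk1 (1.95), Angpt1 (1.84), Errfi1 (1.82), Txnip (1.68), mt-Nd3 (1.65), Lpl (1.5), Klf10 (1.26), Tob2 (1.24), Dusp6 (1.18), Bhlhe40 (1.09), Ndufs1 (1.07), Mtor (1.06), Tmem97 (1.06), Chrna4 (1.04), Xist (1.00), Fnip1 (0.93) and Tsc2 (0.62). For DKO, the difference was 2.77 in Akr1c14, 2.17 in Slco1a6, -1.48 in Lgals3 and -1.66 in Aebp1. Tsc2 is the gene inactivated in the mutants. Dixon's test for a single outlying value was not run, since each group had 3 mice.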

How the results depend on the processing

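The 5 decreased genes became 33 with DESeq2 on all 6 groups, 76 with DESeq2 and 3 with edgeR on the compared groups alone, 12 without the filter on low counts, and 2 to 4 when 1 library was left out. The 0 increased genes became 17, 66, 1 and 2 in the same order, and 0 to 0 with a library left out. The numbers of the mice do not pair the libraries, and a replicate block left 2 decreased genes, Gadd45g and Dusp6, with 45 differences for DKO and 2496 for Tsc2 KO. The 2456 differences for Tsc2 KO became 1505 where every library had to reach the FPKM minimum, and 1859 to 2716 with a library left out. The 50 differences for DKO became 229, 454, 112 and 104 under the settings named first, in that order, 25 with the FPKM minimum in every library, and 9 to 63 with a library left out, the 9 being without control Rapamycin 3. The count for DKO moved by over 1.5 times without control Rapamycin 1 or 3, control vehicle 2 or 3, DKO Rapamycin 1, 2 or 3, or DKO vehicle 1 or 3. Gadd45g kept its call in all 12 alternatives. The 3 of edgeR on the compared groups are Gadd45g, Slc25a25 and Txnip, and Dusp6 lost its call there (adjusted p = 0.0623). Among the genes named by rule, leaving out 1 library turned the sign of 5, none of them called. Their log2 fold changes ran from -0.0098 to 0.16 for Fkbp1a, -0.066 to 0.035 for Rptor, -0.10 to 0.18 for Mitf, -0.015 to 0.38 for Cyp2d12 and -2.45 (without Rapamycin 3) to 1.73 for Gpnmb. The cause was not tested. Of 576 list medians under the alternatives, 4 were classed as moved, in 4 lists. With 3 mice a group, smaller changes may not have been detectable.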
